A study of Mus musculus with 2 samples.

Results

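Keratins and bile duct genes were followed in mouse liver as 8 genes, Krt7, Krt8, Krt18, Krt19, Krt23, Epcam, Sox9 and Cftr, taken as every non-control probe whose transcript accession belongs to one of them. The 8 genes had 8 probes on 17 spots, out of 20660 genes with a named probe, and 7 of the 8 were among the 13881 genes measured on both arrays. A further 28444 probes could not be named, and other probes of the 8 genes, Epcam included, may be among them. The CREBH-Tg mice carry human cDNA for the active form of CREBH, a transcription factor of the liver encoded in the mouse by Creb3l3, and overexpress it mainly in the liver. The WT mice carry no transgene. Both are labelled with the strain C57B6J, and both had eaten the HFHS diet for 12 weeks, so no group on another diet is compared here. The liver RNA of each genotype was pooled and hybridised to 1 Agilent array, and the transgene's promoter, the mice's age and the number of mice per pool are not given in the sources used here.

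Keratins are the intermediate filament proteins of epithelial cells, and each filament pairs a type I with a type II keratin. Hepatocytes of adult liver build theirs from Krt8, of type II, and Krt18, of type I. The cells that line the bile ducts, cholangiocytes, add Krt7 and Krt19, and are also known by the adhesion molecule Epcam, the transcription factor Sox9 and the chloride channel Cftr. Krt23 is a type I keratin described in duct-type cells of injured mouse liver. In whole liver RNA, fewer cells of a type and less RNA per cell cannot be told apart.

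A signal below is the processed spot intensity, or its log2 relative to the 75th percentile of the array, which was 309 on the CREBH-Tg array and 333 on the WT array. Each genotype is 1 array, so the spread between animals could not be measured and no difference was tested. Differences are described by size, and 2-fold is the size counted as apart. The error given is that of repeated spots: the 95% range of a single-spot log2 ratio was 0.40 in the dimmest, 0.17 in the middle and 0.095 in the brightest of 3 equal classes of genes by signal. The scanner software's own estimate of error, also of a single spot, gives wider ranges, from 0.40 for Krt18 to 0.67 for Krt7, and is set beside it. Of the spots, 58.3% on the CREBH-Tg array and 55.4% on the WT array were well above background, and none was saturated. Mouse Creb3l3 had log2 signals of 6.97 in CREBH-Tg and 6.97 in WT, and since the transgene is human this does not check the labels. Hepatocyte markers bore out the tissue label: all 14 hepatocyte markers were in the brightest class, Alb, albumin, at log2 signals of 10.67 in CREBH-Tg and 10.59 in WT. Signals of different probes are not comparable as transcript levels, so the genes are not ranked by level.

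None of the 7 measured genes was 2-fold apart between the genotypes, where 1.33% of all measured genes were, and none was 1.5-fold apart, where 4.55% were. The largest differences were those of Krt23 and Krt7, which were 1.47-fold and 1.45-fold lower in CREBH-Tg liver. The hepatocyte pair Krt8 and Krt18 and the duct genes Krt19, Sox9 and Cftr differed by log2 ratios (CREBH-Tg over WT) between -0.17 and 0.15. The median log2 ratio of the 7 genes was -0.11, beside 0.026 over all measured genes, and 5 of 7 lay below 0, where 44% of all genes did. Log2 ratios exceeded the 95% range of single-spot noise in 4 of 7 genes, against 34% of all genes. Of the 4, 3 (Krt7, Krt8 and Krt23) were lower in CREBH-Tg, as were 13.3% of all genes, and 1 (Krt18) was higher, as were 20.8%. By signal, that noise was exceeded by 20.4% of genes in the dimmest class, 30.3% in the middle and 51.3% in the brightest.

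**Figure D1:**
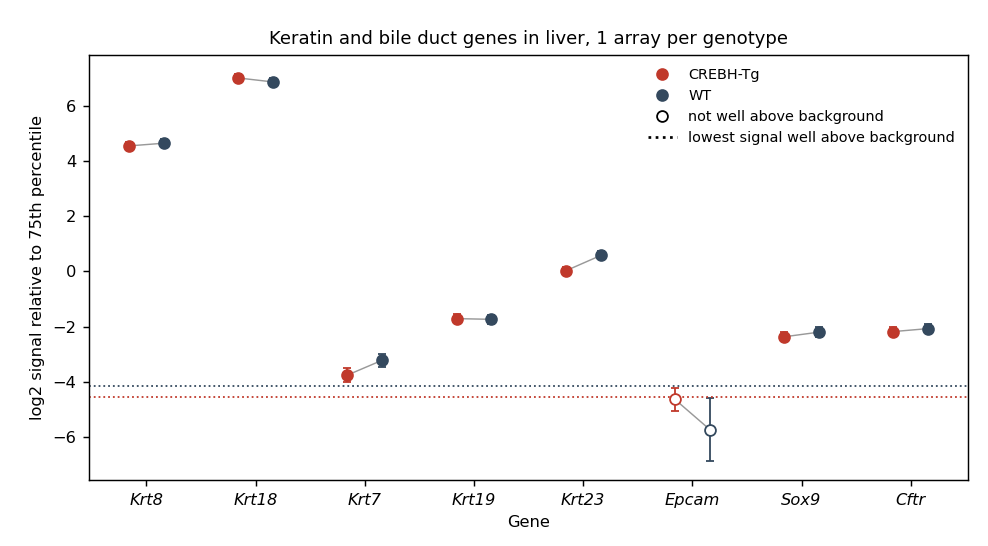
Log2 signal relative to each array's 75th percentile (y axis) of the 8 genes (x axis) on the CREBH-Tg array (red) and the WT array (dark blue). Bars are the scanner software's error of 1 spot, open points are not well above background, and dotted lines mark the lowest signal well above background on each array (-4.55 in CREBH-Tg, -4.13 in WT). Epcam alone is not well above background, and Krt7 lies closest to the dotted lines among the others.

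The hepatocyte keratins were bright on both arrays. Krt8 had an intensity of 7204 in CREBH-Tg liver and 8307 in WT liver, which after scaling gave log2 signals of 4.54 in CREBH-Tg and 4.64 in WT and a log2 ratio of -0.098. Krt18 had 39632 in CREBH-Tg liver and 38619 in WT liver, and its log2 ratio after scaling was 0.15. Krt8 was thus slightly lower and Krt18 slightly higher in CREBH-Tg, Krt8 by about as much as the 0.095 of spot noise for such bright genes and Krt18 by more. The ratios of the partners differed by 0.24, against a spot-noise range of 0.13 for such a difference and a range of 0.57 from the scanner software's error. The sizes depended on the scaling: Krt8 was at -0.16 under quantile normalization and -0.0079 with the median as the scale, and Krt18 at 0.058 and 0.23.

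Krt8 and Krt18 are neighbours on chromosome 15, with 0 protein-coding genes between them in RefSeq's GRCm38.p6 annotation. The 250 bases upstream of their annotated starts are shown because the pair shares a locus and the transgene encodes a DNA-binding factor. They come from RefSeq, GRCm38.p6, the plus strand of chr15:102027966-102028215 for Krt18 and the minus strand of chr15:102004343-102004592 for Krt8, and a promoter was matched for 6 of the 8 genes. Letters searched for on both strands were TGACGTCA, the cyclic AMP response element that CREB-type factors are known to bind, its shorter core TGACG, which overlaps it, and CCACG, the end of the endoplasmic reticulum stress element. Capitals mark matches.
Krt18: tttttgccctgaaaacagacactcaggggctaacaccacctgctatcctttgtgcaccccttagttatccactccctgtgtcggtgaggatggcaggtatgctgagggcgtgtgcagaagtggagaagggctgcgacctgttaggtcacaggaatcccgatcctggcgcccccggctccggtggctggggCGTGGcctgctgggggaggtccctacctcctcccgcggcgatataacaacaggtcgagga
Krt8: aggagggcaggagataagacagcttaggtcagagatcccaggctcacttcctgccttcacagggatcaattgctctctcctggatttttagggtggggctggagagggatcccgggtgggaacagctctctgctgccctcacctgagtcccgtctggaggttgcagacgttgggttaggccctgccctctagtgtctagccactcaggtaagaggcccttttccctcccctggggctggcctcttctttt
The Krt18 window holds CCACG once, as its reverse complement CGTGG, starting 60 bases before the start of the gene, and the Krt8 window holds none of the 3. Of 32851 promoter windows of the same length, 28.3% hold CCACG on either strand, 17.8% hold TGACG and 1.55% hold TGACGTCA. A match here describes the letters only.

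Of the cholangiocyte keratins, Krt7 was lower in CREBH-Tg by more than spot noise and Krt19 was within it, but the difference between their ratios did not exceed its own error. Krt19 had an intensity of 94.7 in CREBH-Tg liver and 100.1 in WT liver, or log2 signals of -1.71 in CREBH-Tg and -1.73 in WT after scaling. Its log2 ratio of 0.027 was well within the spot-noise range of 0.40 for its signal. Krt7 had 22.9 in CREBH-Tg liver and 35.9 in WT liver, at log2 signals of -3.75 in CREBH-Tg and -3.21 in WT. Krt7 was therefore lower in CREBH-Tg by a log2 ratio of -0.54, past the spot-noise range of 0.40 but within the scanner software's range of 0.67. Its signal was 1.74 times the lowest signal well above background in CREBH-Tg and 1.89 times that in WT, the nearest of the 7 to that limit. With normexp background correction its log2 ratio was -0.16. The ratios of Krt19 and Krt7 differed by 0.57, no more than the spot-noise range of that difference, 0.57, and within the scanner software's range of 0.79.

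Krt23 was the 1 gene of the 7 whose difference exceeded both error ranges of a single spot. For Sox9, a mean of 10 spots, the scanner software's range of that mean was not computed. How many of all measured genes exceed the scanner software's range was not counted, so the 1 of 7 has no share beside it. Krt23 had an intensity of 314 in CREBH-Tg liver and 497 in WT liver, at log2 signals of 0.024 in CREBH-Tg and 0.58 in WT. The log2 ratio of -0.55 compares with 0.17 for spot noise in the middle class of genes and 0.40 from the scanner software. Of all measured genes, 2.50% had a lower log2 ratio than Krt23, and of the genes in the middle class of signal, 0.778% did. It stayed between -0.58 and -0.46 over the 10 other ways of processing, so it did not reach 2-fold under any of them.

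**Figure D2:**
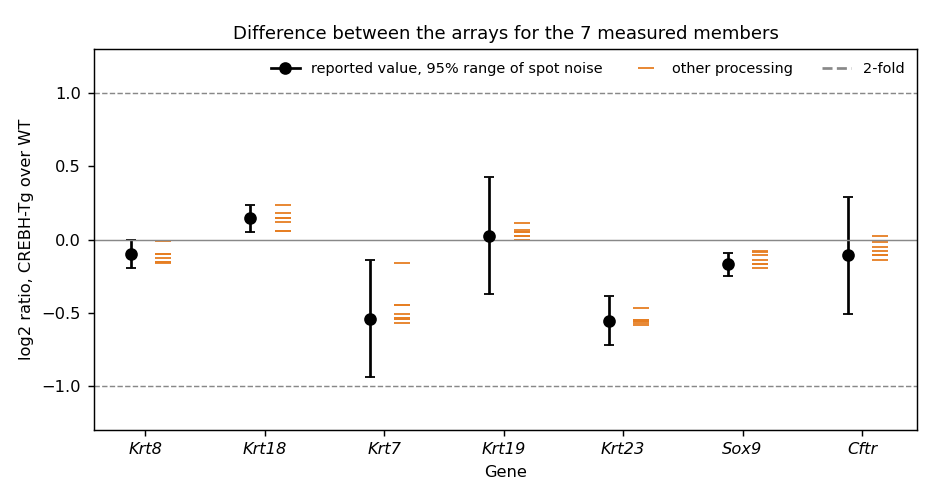
Log2 ratio of CREBH-Tg over WT (y axis) for the 7 genes measured on both arrays (x axis). Black points are the reported values with the 95% range of spot noise (of the mean of 10 spots for Sox9), orange marks are the other ways of processing, and dashed lines are 2-fold. Krt23 keeps its distance from 0 under all of them, whereas Krt7 has 1 mark at -0.16.

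The promoters of Krt23 and Krt7 are shown because their log2 ratios were the lowest of the 7 and differed from each other by 0.015. Krt23 lies in the type I keratin cluster on chromosome 11 (GRCm38.p6, minus strand, chr11:99493121-99493370) and Krt7 in the type II cluster on chromosome 15 (plus strand, chr15:101412153-101412402). Capitals again mark matches to TGACGTCA, TGACG or CCACG on either strand.
Krt23: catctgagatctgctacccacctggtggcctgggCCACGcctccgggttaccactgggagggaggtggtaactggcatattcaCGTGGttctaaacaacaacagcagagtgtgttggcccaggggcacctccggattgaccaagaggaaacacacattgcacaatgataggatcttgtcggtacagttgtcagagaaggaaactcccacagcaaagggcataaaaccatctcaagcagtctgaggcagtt
Krt7: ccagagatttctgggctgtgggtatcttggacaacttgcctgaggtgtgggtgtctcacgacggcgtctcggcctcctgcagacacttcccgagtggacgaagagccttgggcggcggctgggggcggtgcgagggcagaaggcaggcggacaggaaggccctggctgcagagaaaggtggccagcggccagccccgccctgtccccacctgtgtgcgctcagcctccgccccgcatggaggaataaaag
The Krt23 window holds CCACG at 216 bases and its complement CGTGG at 167 bases before the start, while the Krt7 window holds none of the 3. Among the others, Cftr holds CGTGG at 118 and 55 bases, and Epcam none. GC content was 52.8% for Krt23, 66% for Krt7, 60.4% for Krt18, 58% for Krt8, 56.4% for Epcam and 76.4% for Cftr, beside a median of 52.4% over all windows.

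Sox9, a transcription factor that marks forming bile ducts in mouse liver, was the one member spotted repeatedly. Its probe lay on 10 spots of each array, all well above background. Intensities ran from 50.4 through a median of 60.6 to 68.0 in CREBH-Tg liver, against 63.3, 72.3 and 85.5 in WT liver. After scaling, log2 signals averaged -2.36 ± 0.13 in CREBH-Tg and -2.20 ± 0.15 in WT (SD over 10 spots of 1 array each), and the spots of the arrays overlapped. Compared at the same position, 9 of 10 spots were lower in CREBH-Tg, with log2 ratios from -0.37 to 0.020. The mean log2 ratio was -0.17 ± 0.040 (SE over spots), or 1.12-fold lower. The scanner software's range of 0.46 is that of 1 spot, and its range for the mean of 10 spots was not computed. The mean log2 ratio is therefore not judged against that software range. The mean log2 ratio was larger than the error of the spots' mean, 0.079 as a 95% range. With the median as the scale it was -0.079, no larger than that error. These spots are repeats on 1 pool each and say nothing of the spread between mice.

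**Figure D3:**
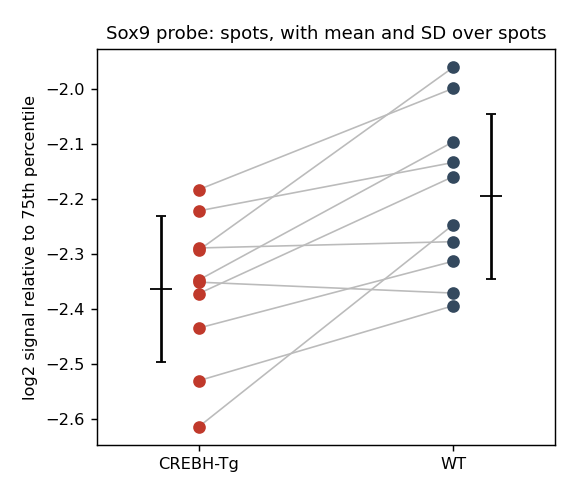
Log2 signal of the Sox9 probe (y axis) on 10 spots of the CREBH-Tg array (red, left) and of the WT array (dark blue, right). Grey lines join spots at the same array position, and black bars give the mean and SD over spots. The spots overlap between arrays, and 9 of 10 lines run upward to WT.

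Cftr, which conducts chloride into bile, had an intensity of 68.4 in CREBH-Tg liver and 79.4 in WT liver. Its log2 signals were -2.18 in CREBH-Tg and -2.07 in WT, and the log2 ratio of -0.11 was within the spot-noise range of 0.40. Epcam was not well above background on either array, at intensities of 12.5 in CREBH-Tg and 6.30 in WT, so no fold is given for it. The lowest signal well above background was 13.2 in CREBH-Tg and 19.0 in WT, so Epcam could have differed below those limits without being detectable.

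The wider set of bile duct markers was also without a 2-fold difference. Of 26 listed genes, 21 were measured on both arrays, and their median log2 ratio was -0.073 (0.017 with the median as the scale), beside 0.026 over all genes. Of the 21, 15 were below 0, against 44% of all genes. Single-spot noise was exceeded by 2 genes lower and 4 higher, the other 15 being within it, where 13.3% of all genes were lower and 20.8% higher by that measure. The higher 4 were Foxa3 at a log2 ratio of 0.24, Cdh1 at 0.20, Cldn3 and Mal2. Foxa3, Cldn3 and Mal2 were in the brightest class of signal and Cdh1 in the middle one. How much of the signal of any gene of the list came from hepatocytes was not tested. Foxa3 and Cdh1 were named after their values were seen. The lower 2 were Dcdc2a, a doublecortin-domain gene active in the cilia of bile duct cells, and Spp1, osteopontin, a secreted matrix protein of cholangiocytes. Dcdc2a had log2 signals of -2.34 in CREBH-Tg and -1.69 in WT (log2 ratio -0.65, and -0.21 with normexp). Spp1 had -0.10 in CREBH-Tg and 0.41 in WT (log2 ratio -0.51). Prom1, the surface protein CD133, and the epithelial transcription factor Ehf were at log2 ratios of -0.34 and -0.29, both within noise. The brightest of the list were Cldn3, a tight junction claudin, at 0.19, Mal2, a protein of transcytosis, at 0.13, and Anxa4, an annexin, at 0.053. Elf3 and Vtcn1 stayed at background in both genotypes, and Tspan8 and Ncam1 were flagged well above it in CREBH-Tg alone. Tspan8 had intensities of 23.3 in CREBH-Tg and 15.3 in WT, and Ncam1 35.9 in CREBH-Tg and 24.9 in WT. The lowest signal well above background was 13.2 in CREBH-Tg and 19.0 in WT, so a flag on 1 array alone is not read as a difference, here or below.

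**Figure D4:**
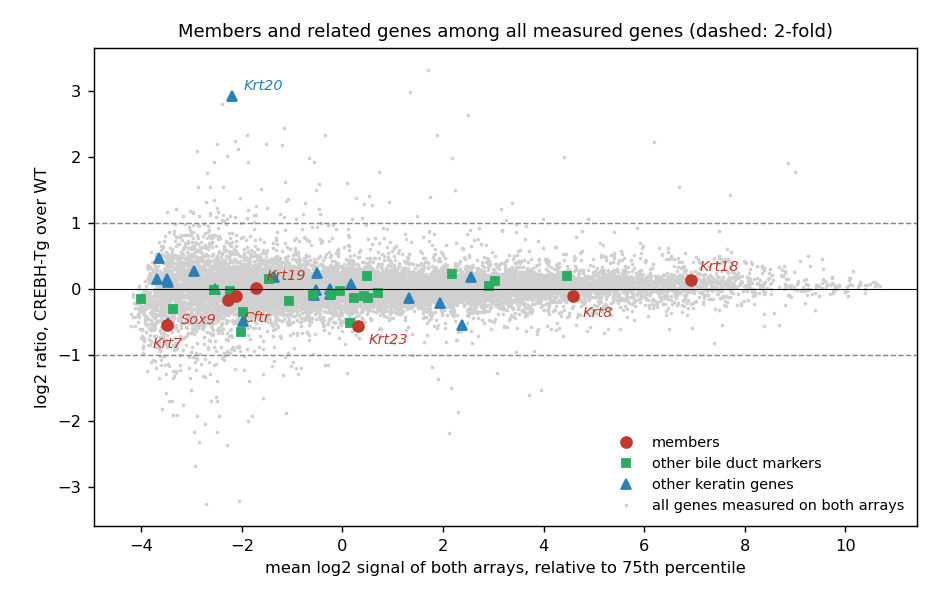
Log2 ratio of CREBH-Tg over WT (y axis) against the mean log2 signal of both arrays (x axis) for the 13881 genes measured on both (grey), with the 7 members (red circles), 20 other keratins (blue triangles) and 21 other bile duct markers (green squares). Dashed lines are 2-fold. The members lie inside the band of all genes, whereas Krt20, at a log2 ratio of 2.93, lies far above it.

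Among the other keratins, Krt20 stood apart. Of 49 other keratin genes in the annotation, 48 had a named probe, 20 were measured on both arrays and 27 on neither. The median log2 ratio of the 20 was 0.043, beside 0.026 over all genes. Of the 20, 12 lay above 0 and 8 below, where 44% of all genes lay below. Krt20, a type I keratin of gut and urinary epithelium, had an intensity of 187 in CREBH-Tg liver and 26.5 in WT liver, at log2 signals of -0.72 in CREBH-Tg and -3.65 in WT. It was 7.62-fold higher on the measured scale, the 1 of 20 that was 2-fold apart, where 0.663% of all genes were 2-fold higher, and its log2 ratio was 1.37 with normexp. Its WT signal was near the 19.0 at which signals were lowest above background there, and it did not pass the stricter filter on dim probes. No member differed by more than 1.47-fold, and Krt19 and Krt23 lie in the same type I cluster on chromosome 11. In that cluster the 11 other measured keratins had a median of 0.15, and in the type II cluster on chromosome 15 the 9 others had a median of 0.0041. Farthest from 0 after Krt20 were Krt222, a keratin-like gene, at -0.53, Krt6b at -0.50 and Krt5, a keratin of basal epithelial cells, at -0.48. Krt24 was at 0.48, Krt42 at 0.28 and Krt10, of differentiated epidermis, at 0.25. Krt5, Krt6b, Krt10 and Krt222 each had a further probe at background in both genotypes. Keratins are similar in sequence, and whether their probes share signal was not tested.

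Channels and carriers of ductal bile secretion, the setting in which Cftr works, had a list median near 0. The 17 measured of 22 listed genes had a median log2 ratio of -0.0020 (0.088 with the median as the scale). Of the 17, 7 were above and 10 below 0, where 44% of all genes were below. None was 2-fold apart, where 1.33% of all genes were. Beyond single-spot noise 4 were higher and 4 lower, where 20.8% of all genes were higher and 13.3% lower. Aqp4, a water channel, had the highest log2 ratio of the list, 0.97, with log2 signals of 0.29 in CREBH-Tg and -0.68 in WT. Its other probe had a log2 ratio of 1.32, and it passed 2-fold under 3 alternatives, at log2 ratios of 1.01 with normexp, 1.06 with the median as the scale and 1.14 as the mean over its probes. Sctr, the secretin receptor, was at -0.13, with another probe at -1.13, and was named after its values were seen. Aqp1, the main water channel of cholangiocytes, was at 0.20, and Slc4a2, the chloride-bicarbonate exchanger paired with Cftr, at -0.070. Slc9a3r1, a scaffold that binds Cftr, was at -0.14, and Slc12a2, which loads chloride into the cell, at -0.45. Ano1, a calcium-gated chloride channel, was at 0.28, and Prkar2b, a subunit of the kinase that opens Cftr, at 0.44.

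Notch signalling, which induces Sox9 in the developing bile duct, and the YAP pathway, which acts beside it, were read through 27 genes. Of these 22 were measured, with a median log2 ratio of 0.090, beside 0.026 over all genes. Of the 22, 14 were above 0 and 8 below, where 44% of all genes were below. Single-spot noise was exceeded by 6 genes higher and 5 lower, where 20.8% of all genes were higher and 13.3% lower. The receptor Notch2 was lower, at log2 signals of 1.32 in CREBH-Tg and 1.56 in WT (log2 ratio -0.24, and -0.55 by its other probe). The Notch target genes went both ways. Hes1 was 2.19-fold higher, with intensities of 74.2 in CREBH-Tg and 36.5 in WT. It was the 1 gene of the 22 that was 2-fold apart, where 1.33% of all genes were. Hey1 was at a log2 ratio of 0.68, and Heyl, of the same family, at -0.94. All 3 targets were in the dimmest class, and with normexp the log2 ratios were 0.38 for Hes1, 0.085 for Hey1 and -0.47 for Heyl. Of the YAP pathway, the coactivator Yap1 was at 0.12, its relative Wwtr1 at -0.50 and the receptor kinase Axl, a target, at 0.064. Other targets were Ccn1 at 0.38 and Ccn2 at 0.27, both past the spot-noise range of 0.17 for their signal, and Amotl2 at 0.031, within it. These 3 were named after their values were seen.

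Genes of the structures that keratins attach to had medians near 0 too, while Lamb3 was far higher in CREBH-Tg. For 22 filament and junction genes, all measured, the median log2 ratio was 0.017 (-0.011 with the 75th percentile of detected probes as the scale). Of the 22, 11 were above and 11 below 0, where 44% of all genes were below. None was 2-fold apart, where 1.33% of all genes were. The tight junction protein Ocln was highest at 0.51, and Jup, the junction protein plakoglobin, lowest at -0.34 and within noise. Cldn1, a tight junction claudin, was at 0.28 and Des, the muscle and stellate cell filament desmin, at 0.25. Sqstm1, the adaptor p62 found in keratin inclusions of diseased hepatocytes, was at 0.21, Pkp3, a desmosomal plakophilin, at 0.13 and the nuclear lamin Lmnb2 at 0.18. Of 14 genes of matrix adhesion, mostly laminins, integrins and tetraspanins, 11 were measured, at a median of 0.018. Lamb3, a chain of the basement membrane laminin of epithelia, had an intensity of 2222 in CREBH-Tg liver and 301 in WT liver, 7.94-fold higher. The tetraspanins Cd9 and Cd151 were at log2 ratios of 0.57 and 0.090, and Lama5, a laminin chain, at -0.28.

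**Figure D5:**
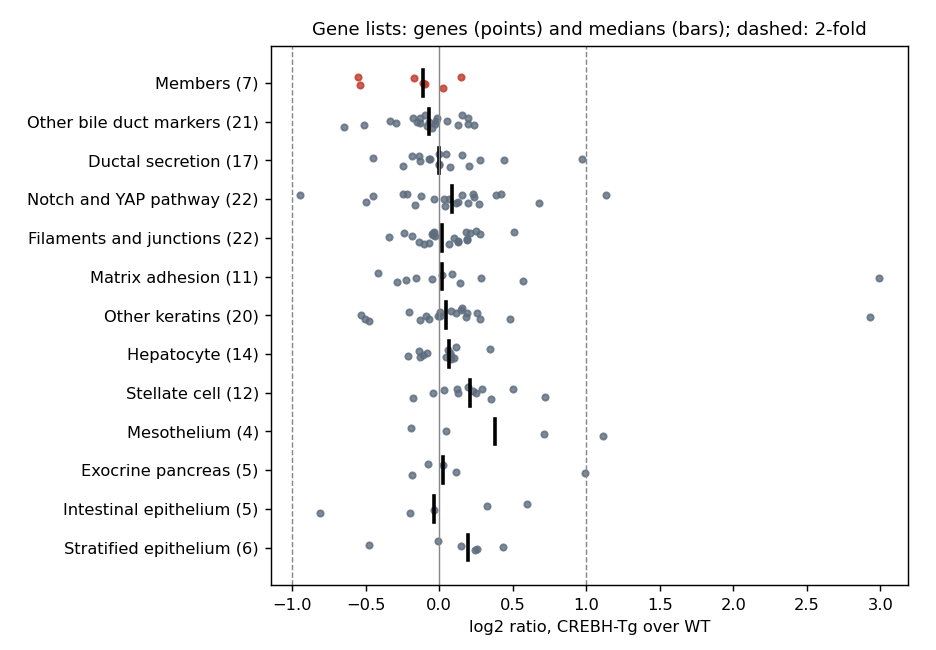
Log2 ratio of CREBH-Tg over WT (x axis) of the measured genes (points, number in brackets) of each gene list (y axis), with the list median (black bar) and 2-fold (dashed). The members have a median of -0.11 and none beyond 2-fold, and the points near 3 are Lamb3 and Krt20.

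Markers of other liver cells that can bear on keratin and duct values were read beside them. The 14 hepatocyte markers had a median log2 ratio of 0.067 (-0.049 with loess and -0.029 with quantile normalization), from -0.21 for Ass1, of the urea cycle, to 0.35 for Apoa1, an apolipoprotein. Their summed log2 signal was 13.02 in CREBH-Tg and 12.96 in WT. The 12 stellate cell markers had a median of 0.21, beside 0.026 over all genes. Of the 12, 10 were above 0 and 2 below, where 44% of all genes were below. Single-spot noise was exceeded by 5 higher and 1 lower, the other 6 being within it, where 20.8% of all genes were higher and 13.3% lower. Lum, a matrix proteoglycan, was highest of the 12 at 0.72. The summed log2 signal of the stellate markers was 6.37 in CREBH-Tg and 6.29 in WT. Mesothelium, the liver's covering, also makes Krt8, Krt18 and Krt19. Of its 9 listed markers 8 had a probe and 4 were measured, with a median log2 ratio of 0.38 (-0.073 for the 2 that passed the stricter filter on dim probes) and a summed log2 signal of 0.17 in CREBH-Tg and 0.067 in WT. The transcription factor Wt1 was 2.17-fold higher (log2 ratio 0.53 with normexp), while Gpm6a was at a log2 ratio of 0.71, Rspo1, a Wnt agonist, at 0.048 and Msln, mesothelin, at -0.19. The defining marker Upk3b was flagged above background in CREBH-Tg alone, at intensities of 34.0 in CREBH-Tg and 24.8 in WT. Upk1b, Lrrn4 and Bnc1 were flagged in neither genotype. A summed signal mostly follows its brightest probes, such as Dcn in the stellate list, at 6.09 in CREBH-Tg and 6.06 in WT. It is not a measure of how many cells of a type were present. The part of these cells in the values of the 8 genes was not tested.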

How the data were processed

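Total RNA of pooled liver from CREBH-Tg and WT mice was extracted with Trizol and 0.1 μg labelled with Cy3 as cRNA, per the labels, and each pool was read on 1 array of the same slide. Per the file headers, Agilent Feature Extraction 10.10.1.1 produced the deposited processed signal, a linear intensity corrected for background and for spatial trend on its own array, with no scaling across arrays, and the probe design is annotated on mm9. The deposited value table is the same intensity times 1 constant per array, 2.68 for CREBH-Tg and 2.59 for WT, for a reason not given in the sources used here.

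Log2 of the processed signal was taken, the array's 75th percentile over non-control spots subtracted, 300 outlier spots left out and spots of a probe averaged. Detection of a probe required more than 50% of its spots above background by the software's flag, and a gene was represented by its brightest probe detected on both arrays. Probes were named by unversioned RefSeq accession (GRCm38.p6 table, names only): 27233 of 55677 probes matched, and 28444 stayed unnamed. Signal classes were 3 equal groups of genes by mean signal. Spot noise was the SD of single-spot log2 ratios over probes spotted at least 5 times (92 dim, 97 middle and 87 bright), and its 95% range assumed a normal spread. No test was run, because each genotype is 1 array. Differences between animals, pools and hybridisations are not covered, and the number of arrays limits the precision.

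The members and the gene lists were chosen with earlier results of these data known. Named were all members, other keratins that were 2-fold apart and the 6 next farthest from 0, and in each list the 3 brightest and 4 farthest genes, with some genes not well above background; results of some listed genes are not reported here. A pattern over 2 arrays is a single ratio, so no gene was named for likeness to a member. Listed genes were matched by symbol or synonym. The steps were tested on simulated data. Alternatives covered scaling, background correction (normexp, offset 50, on the median spot signal, also deposited as intensity), the deposited table, probe summary, detection filter, outlier spots and the fold threshold. For the lists of other cell types and for named genes outside the members they were added after seeing the data. Normexp used limma 3.58.1 in R 4.3.3. All else ran in Python 3.11.15 with pandas 2.3.3, numpy 2.4.6 and, for loess, statsmodels 0.14.6, and figures with matplotlib 3.10.9.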

Additional observations from a re-analysis of the deposited data

How the results depend on the processing

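No paired analysis was possible because each genotype has 1 array. None of the 7 measured members reached 2-fold under any of the 10 alternatives, and Krt7, Krt8, Krt18, Krt23 and Sox9 kept their sign wherever measured. Without a detection filter Epcam, below background on both arrays, entered and made the count 1. Scaling to the median added 0.090 to every log2 ratio. It put Krt8 at -0.0079, Krt18 at 0.23, Krt23 at -0.46 and the members' median at -0.018. List medians became 0.017 for other bile duct markers, 0.088 for ductal secretion, 0.18 for Notch and YAP, 0.11 for filaments and junctions, 0.11 for matrix adhesion genes and 0.13 for other keratins. Those of other cell types became 0.16 (hepatocyte), 0.30 (stellate cell), 0.47 (mesothelium), 0.12 (exocrine pancreas), 0.051 (intestine) and 0.29 (stratified epithelium).

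Quantile normalization gave -0.16 for Krt8, 0.058 for Krt18 and -0.029 for hepatocyte markers, and loess -0.16, 0.062 and -0.049. Normexp gave -0.16 for Krt7, -0.15 for Krt8 and 0.10 for mesothelium. With no detection filter the medians were -0.10 for matrix adhesion genes, 0.64 for mesothelium, -0.098 for exocrine pancreas, 0.070 for stratified epithelium and -0.080 for other keratins. The stricter filter gave -0.073 for mesothelium and 0.32 for intestine and dropped Krt7 and Sox9, as well as Krt20, Hes1, Hey1, Heyl and Wt1. Signs of Krt19 and Cftr, near 0, changed under 1 alternative each. Over all genes, 92 were 2-fold higher and 93 lower (49.7% of calls higher), against 115 and 77 with median scaling (59.9%), 42 and 16 with normexp (72.4%), 45 and 25 with the stricter filter (64.3%) and 605 and 782 without a filter. Both filters change which genes enter a list, and the offset of normexp shrinks ratios of dim spots by construction. For the other shifts the cause was not tested. Signal close to background limits what can be said of Krt7 and Epcam, and of Krt20, Hes1, Hey1, Heyl and Wt1.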

Other observations

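Markers of epithelia from outside the liver were measured in part. Of 12 stratified epithelium markers 6 were measured, with a median log2 ratio of 0.20. Trp63, the p63 transcription factor, was at 0.25 and Lor, loricrin of the epidermis, at 0.43, while Krt1, Krt4, Krt6a and Krt15 stayed at background in both genotypes. Of 12 intestinal markers 5 were measured, with a median of -0.039. Among them Fabp2, a fatty acid-binding protein also present in liver, was at 0.32, Tff3, a secreted trefoil peptide, at 0.60 and the brush border enzyme Sis, dim, at -0.81. Lgals4, a galectin, was at -0.039 and Guca2a, guanylin, at -0.20. Cdx2, the gut's defining transcription factor, stayed at background in both genotypes. Vil1, villin, and Mep1b were flagged above it in CREBH-Tg alone, at intensities of 16.8 and 21.1 there and 4.68 and 12.5 in WT. Cdx1 and Guca2b were flagged in WT alone, at 19.9 and 22.6 there and 11.3 and 9.86 in CREBH-Tg.

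Of 11 exocrine pancreas markers 5 were measured, with a median log2 ratio of 0.028. Amy2a5, an amylase, was at -0.077, Ctrb1, chymotrypsinogen, at 0.028 and Ctrl, a related protease, at -0.18. Cel, a lipase, was at 0.11 and the dim Cela1, an elastase, at 0.99 (0.47 with normexp). Prss2, Cpa1, Cpb1, Pnlip and Cela3b stayed at background in both genotypes. Cela2a was flagged above it in CREBH-Tg alone, at intensities of 22.3 in CREBH-Tg and 17.6 in WT.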
